A study of Dicentrarchus labrax with 30 samples.

Results

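A set of genes known as targets that glucocorticoids switch on was followed in the pituitary, whole brain and head kidney of bold and shy European sea bass (Dicentrarchus labrax). The set was given by 6 symbols, TSC22D3, KLF9, SGK1, DDIT4, CEBPD and IRS2, and its members were all rows of the count table that carry one of them. This rule found 11 gene identifiers of 26719. TSC22D3 stood on DLAgn_00108490 and DLAgn_00108510, KLF9 on DLAgn_00117720, and CEBPD on DLAgn_00006610. SGK1 stood on DLAgn_00060760, DLAgn_00069000 and DLAgn_00203920, DDIT4 on DLAgn_00014080 and DLAgn_00103020, and IRS2 on DLAgn_00052160 and DLAgn_00138670. Each identifier was kept apart, because rows that share a symbol may be separate gene copies. Whether the authors' counting could split reads between near-identical copies is not known, so the division of counts between rows of one symbol is uncertain. The symbols were chosen with the bold minus shy differences of the pituitary and the head kidney already known. The values of these differences are therefore given as a description, with no test.

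In teleost fish, cortisol is made by interrenal cells of the head kidney under the control of corticotropin from the pituitary. Inside a target cell it binds the glucocorticoid receptor, which then enters the nucleus and acts on the transcription of many genes. The roles of the members are known mainly from mammals. TSC22D3, also called GILZ, is a leucine zipper protein that restrains inflammatory transcription factors. KLF9 is a Krüppel-like transcription factor, and CEBPD is a CCAAT/enhancer-binding transcription factor of inflammatory and acute phase responses. SGK1 is a kinase that controls ion channels and transporters, DDIT4 (REDD1) is an inhibitor of the growth kinase TOR, and IRS2 is an adaptor that carries the signal of insulin and insulin-like growth factor receptors.

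The series asked how the transcriptomes of 3 tissues differ between fish at the ends of a boldness scale. Bold fish were constant in leaving a sheltered side of a tank early, and shy fish left it very late or not at all. Boldness was scored in 4 tests over 7 months, the first 3 tests served to choose 10 fish, and these were sampled at 478 days after fertilization. Per tissue, the 5 bold libraries came from 3 males and 2 females (bold 1 and bold 4), and the 5 shy libraries came from 2 males (shy 1 and shy 2) and 3 females. Eggs of both classes were reared in 9 tanks, and no strain, genotype, drug or stress treatment is named for either. The 10 fish gave all 30 libraries, but the labels do not tie the libraries of 3 tissues to a fish. Libraries were therefore entered as independent, numbers do not pair tissues, and p-values measure the spread between these libraries.

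Library totals lay between 3808645 and 12550808 counts in pituitary, 7916478 and 20067656 in brain, and 4667992 and 26837997 in head kidney. Defining markers matched the labelled tissues. The thyrotropin subunit TSHB averaged 2434 CPM in pituitary against 0.0845 CPM in brain, GFAP of astroglia averaged 115.9 CPM in brain against 4.68 CPM in pituitary, and the steroidogenic protein STAR averaged 295.1 CPM in head kidney against 0.186 CPM in brain. Some libraries stood apart from their tissue. In pituitary, genes of ribosomal proteins took 2.71% of counts in shy 1 and 1.68% in shy 2, which are the 2 shy males, against 3.67% to 5.09% in the other libraries. They took 0.0168% in brain shy 4, from a female, and brain shy 1 was the other brain library set aside in the fits without such libraries. Some of the values that rest on these libraries are given with and without them.

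The levels of the members differed strongly between tissues. The head kidney had the lowest mean level for 7 of the 11 identifiers, and the tissue of highest level was not the same for all of them. Levels here are CPM, counts scaled to a common library size by factors common to all 30 libraries, as mean ± SD with n = 10 libraries per tissue. Tests of tissues came from 1 edgeR quasi-likelihood fit with a Benjamini-Hochberg adjusted p under 0.05 as the threshold, and each tissue was set against the mean of the other tissues. In pituitary, 9 of the 11 identifiers passed, 6 higher and 3 lower, where 65.3% of all genes tested passed. Of all genes, 36.1% were higher in pituitary and 29.2% lower. In brain, 7 passed, 6 higher and 1 lower, against a background of 76.5% (41.9% higher and 34.6% lower). In head kidney all 11 passed, 4 higher and 7 lower, against 80.6% (36.2% higher and 44.4% lower). Such backgrounds are high, and these counts are not read as particular to the members. The median fold change of the members was 1.11, 0.49 and -1.33 on the log2 scale in pituitary, brain and head kidney, against 0.04, 0.07 and -0.21 over all genes. Each is against the mean of the other tissues, which for pituitary and brain includes head kidney. In pituitary minus brain the members' median was -0.21, with 5 of 11 positive.

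Among the transcriptional regulators, CEBPD had the widest spread between tissues. It averaged 47.6 ± 33.5 CPM in pituitary, 3.12 ± 1.42 CPM in brain and 17.5 ± 8.13 CPM in the head kidney. Every pituitary and every head kidney library lay above every brain library. The pituitary level was 3.76 higher than the brain level on the log2 scale (SE 0.37, adjusted p = 8.55e-10), or 13.6-fold, and the head kidney level was 2.49 higher than in brain (SE 0.35, adjusted p = 2.92e-07). Head kidney minus pituitary was -1.27 (SE 0.33, adjusted p = 0.00107). Against the mean of the other tissues, head kidney CEBPD passed narrowly, with a log2 fold change of 0.61 (SE 0.28, adjusted p = 0.0486 by edgeR), and that call was kept in 10 of 30 fits with 1 library left out.

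The main TSC22D3 row, DLAgn_00108490, ran in another order. It averaged 52.8 ± 9.85 CPM in pituitary, 116.0 ± 19.3 CPM in brain and 168.6 ± 67.1 CPM in the head kidney. Every brain and head kidney library lay above every pituitary library. Head kidney exceeded pituitary by 1.62 on the log2 scale (SE 0.13, adjusted p = 6.79e-12) and brain by 0.48 (SE 0.13, adjusted p = 0.00134). The second row, DLAgn_00108510, was read at 1.76 ± 1.04, 4.74 ± 2.29 and 6.28 ± 3.00 CPM in pituitary, brain and head kidney, and the last pair did not differ past the threshold (0.39, SE 0.38, adjusted p = 0.348). In brain against the other tissues, DLAgn_00108510 did not pass (0.49, SE 0.33, adjusted p = 0.178) but did without brain shy 4 (0.64, adjusted p = 0.0131). Both rows were lower in pituitary than in the other tissues, with log2 fold changes of -1.38 (SE 0.12) and -1.57 (SE 0.37).

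KLF9 averaged 21.96 ± 10.7 CPM in pituitary, 14.6 ± 14.6 CPM in brain and 7.21 ± 3.14 CPM in the head kidney. Every pituitary library lay above every head kidney library, while brain overlapped with both. Pituitary exceeded the mean of the other tissues by 1.11 on the log2 scale (SE 0.23, adjusted p = 0.00011), and head kidney minus pituitary was -1.59 (SE 0.28, adjusted p = 1.02e-05). The step between pituitary and brain was small and hung on single libraries. It was 0.63 (SE 0.27, adjusted p = 0.0444), passed in 14 of 30 fits with 1 library left out, and was 1.04 without brain shy 4. The KLF9 level of brain shy 4 was 55.8 CPM, against 7.10 to 12.8 CPM in the other brain libraries.

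The kinase SGK1 had 2 abundant rows and 1 sparse row, and all 3 were lowest in head kidney. DLAgn_00069000 averaged 125.9 ± 26.0 CPM in pituitary and 145.8 ± 32.1 CPM in brain, which did not differ past the threshold (-0.21, SE 0.19, adjusted p = 0.338), and 19.4 ± 7.16 CPM in head kidney, below every library of the other tissues. Against the mean of the other tissues its head kidney level had a log2 fold change of -2.80 (SE 0.19, adjusted p = 1.5e-13). DLAgn_00203920 averaged 84.8 ± 41.2, 149.9 ± 62.5 and 48.0 ± 26.7 CPM in pituitary, brain and head kidney. For this row brain was the highest tissue, with log2 differences of -0.82 for pituitary minus brain (SE 0.25, adjusted p = 0.00555) and of -1.74 for head kidney minus brain (SE 0.26, adjusted p = 5.51e-07). Its brain mean includes shy 4 at 324.3 CPM, against 116.0 to 152.2 CPM in the other brain libraries. Both calls were kept in 30 of 30 fits with 1 library left out. DLAgn_00060760 averaged 3.52 ± 1.05 CPM in pituitary, 1.46 ± 0.58 CPM in brain and 0.201 ± 0.174 CPM in the head kidney, where no library held more than 4 counts and 2 held none.

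The TOR inhibitor DDIT4 was counted almost wholly on DLAgn_00103020, with 26.0 ± 10.1 CPM in pituitary, 42.7 ± 10.2 CPM in brain and 98.2 ± 64.5 CPM in the head kidney. Every brain library lay inside the head kidney range of 20.5 to 242.4 CPM, and the pituitary range of 14.9 to 48.0 CPM overlapped with both. Head kidney exceeded pituitary by 1.80 on the log2 scale (SE 0.23, adjusted p = 6.48e-08) and brain by 1.07 (SE 0.23, adjusted p = 0.000105). Pituitary minus brain was -0.74 (SE 0.23, adjusted p = 0.00601), a call that was lost without the libraries that stood apart (-0.58, adjusted p = 0.0651). The sparse row DLAgn_00014080 ran the other way in head kidney. It averaged 0.579 ± 0.455, 1.87 ± 0.51 and 0.132 ± 0.0991 CPM in pituitary, brain and head kidney, and in head kidney no library held more than 3 counts.

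The insulin signalling adaptor IRS2 was highest in pituitary through DLAgn_00138670, the row whose tissues separated most cleanly. It averaged 92.1 ± 36.0 CPM in pituitary, 38.7 ± 5.39 CPM in brain and 16.2 ± 4.50 CPM in the head kidney, and no library of one tissue reached into the range of the next. Pituitary exceeded brain by 1.23 on the log2 scale (SE 0.15, adjusted p = 3.81e-08), and head kidney minus brain was -1.28 (SE 0.15, adjusted p = 9.18e-09). DLAgn_00052160 averaged 36.5 ± 29.7, 30.1 ± 17.1 and 6.47 ± 2.85 CPM in the same order of tissues. Its pituitary and brain levels did not differ past the threshold (0.15, SE 0.37, adjusted p = 0.748), and its head kidney level had a log2 fold change of -2.31 against the mean of the others (SE 0.37, adjusted p = 2.53e-06).

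**Figure D1:**
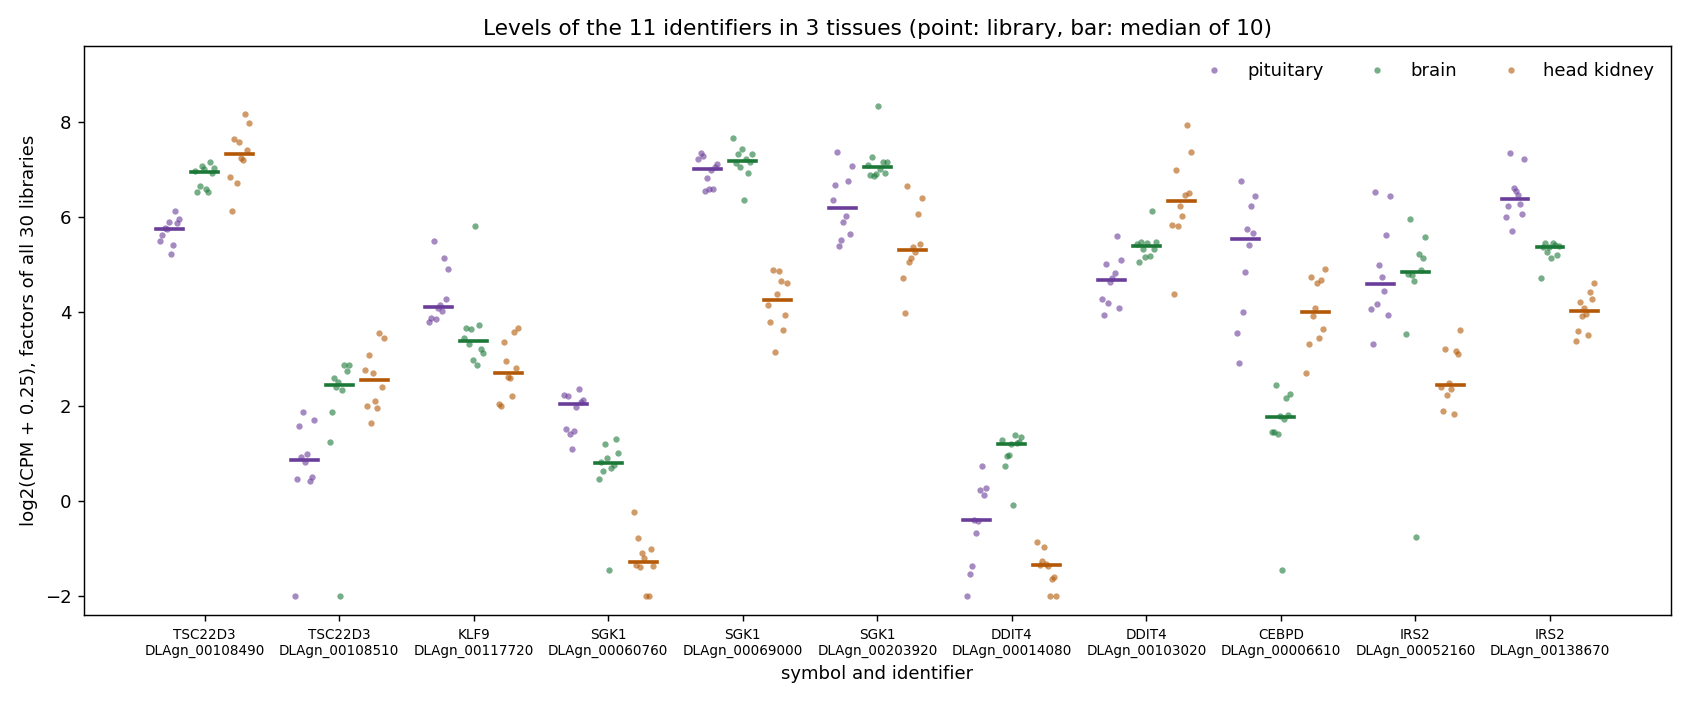
Level of each identifier in the 10 libraries of each tissue, as log2 of CPM plus 0.25 with scaling factors common to all libraries; points are libraries and bars are medians. CEBPD and IRS2 DLAgn_00138670 sit highest in pituitary, TSC22D3 DLAgn_00108490 and DDIT4 DLAgn_00103020 highest in head kidney, and the 3 SGK1 rows lowest in head kidney.

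Between pairs of tissues, the counts of members that passed again stood beside high backgrounds. In pituitary minus brain 9 of 11 passed, 4 higher and 5 lower, where 64.7% of all genes passed. In head kidney minus brain 10 passed, 3 higher and 7 lower, against 81.7%. In head kidney minus pituitary 11 passed, 3 higher and 8 lower, against 75.7%. The members' median log2 fold change in these contrasts was -0.21, -1.28 and -1.59, against -0.07, -0.21 and -0.18 over all genes. Whether fewer cells of a type or less RNA per cell lay behind a lower level cannot be told apart in these bulk libraries. Other cell types moved with tissue as well. Erythroid markers summed to between 144200 and 376800 CPM in head kidney, against at most 664.2 CPM in the other tissues, and neuronal and glial markers to between 4424 and 6965 CPM in brain, 696.6 to 985.5 CPM in pituitary and 55.6 to 103.5 CPM in head kidney. Their part in the tissue differences of the members was not tested.

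Rows of one symbol also shifted against each other between tissues. Gene lengths are not given, so only the share of a symbol's counts is used here, as the median of 10 libraries. For SGK1, DLAgn_00069000 took 62.2% of the counts in pituitary, 53.1% in brain and 31.3% in head kidney, while DLAgn_00203920 took 36.1%, 46.1% and 68.3%. In head kidney DLAgn_00203920 held the larger share in every library, between 53.3% and 84.7%. For IRS2, DLAgn_00138670 took 76.8% in pituitary, 58.8% in brain and 73.1% in head kidney. TSC22D3 and DDIT4 were each dominated by 1 row, with median shares of 95.6% to 96.5% for DLAgn_00108490 and of 95.5% to 99.8% for DLAgn_00103020.

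In pituitary, all 10 members that passed the filter on low counts had a higher fitted level in bold than in shy fish, and the differences were wide between libraries of one class. The sparse DDIT4 row DLAgn_00014080 did not pass that filter. CPM values from here on use factors of one tissue alone, and bold minus shy values come from an edgeR fit with sex as a covariate. The members' median log2 fold change was 0.56, against 0.02 over 17102 genes, of which 51.8% were higher in bold fish. By edgeR 0.0% of genes passed an adjusted p under 0.05 in pituitary, 3081 genes had an unadjusted p under 0.05, and DESeq2 and voom with sample quality weights called 689 and 0 genes. The members were chosen on this contrast, so nothing is read from their count.

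The TSC22D3 row DLAgn_00108490 was the 1 member of 10 whose bold and shy pituitary libraries did not overlap, where each bold library lay above each shy library for 1.09% of all genes. It stood at 61.1, 67.3, 78.2, 66.3 and 71.2 CPM in bold 1 to bold 5, against 52.3, 56.0, 60.7, 41.6 and 47.7 CPM in shy 1 to shy 5. The gap between the lowest bold and the highest shy library was narrow. The fold change was 0.38 on the log2 scale (SE 0.12), or 1.30-fold, and it stayed between 0.33 and 0.46 when any 1 library was left out. The second row, DLAgn_00108510, had 3.15, 3.91, 1.24, 1.34 and 3.48 CPM in the bold libraries, against 0, 1.30, 1.88, 1.71 and 1.99 CPM in the shy libraries. Its groups overlapped, and its difference of 1.02 (SE 0.61) was 0.62 without shy 1 and 0.32 without shy 1 and shy 2.

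KLF9 had 51.1, 18.8, 39.2, 21.6 and 33.7 CPM in bold 1 to bold 5 pituitaries, against 15.6, 16.5, 16.1, 19.7 and 18.2 CPM in shy 1 to shy 5. The shy libraries were close together, and only bold 2 fell among them. The difference was 0.98 on the log2 scale (SE 0.25), or 1.98-fold. It was 0.68 without bold 1 and 1.03 without shy 1 and shy 2.

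CEBPD had 121.9, 32.4, 84.2, 57.0 and 98.7 CPM in bold 1 to bold 5 pituitaries, against 13.3, 8.45, 17.7, 60.2 and 48.1 CPM in shy 1 to shy 5. Its 3 highest bold libraries lay above all shy libraries, and shy 4 and shy 5 reached the lower bold libraries. The difference of 1.86 (SE 0.53), or 3.64-fold, was the largest of the members in the fit of all libraries with sex as a covariate. It was 1.41 without that covariate. Without shy 1 and shy 2, the males that stood apart, which held the lowest levels, it was 1.09 (SE 0.67). In these 2 fits IRS2 DLAgn_00052160 had larger differences, of 1.58 and 1.30.

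IRS2 moved in the same direction on both rows. DLAgn_00052160 had 103.9, 35.9, 55.7, 17.0 and 98.7 CPM in bold 1 to bold 5, against 19.0, 11.3, 20.1, 29.8 and 24.4 CPM in shy 1 to shy 5. Bold 1 and bold 5 stood far above the rest, and bold 4 lay within the shy range. The difference was 1.68 (SE 0.49), or 3.21-fold, and 1.30 without shy 1 and shy 2. DLAgn_00138670 had 184.1, 111.0, 87.4, 75.1 and 169.2 CPM in the bold libraries, against 73.9, 85.8, 58.5, 105.8 and 99.8 CPM in the shy libraries. Again bold 1 and bold 5 were highest, bold 2 lay just above the shy range, and bold 3 and bold 4 lay within it. The difference was 0.59 (SE 0.27), 0.31 without bold 1, and 0.56 without shy 1 and shy 2.

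The remaining members differed less. SGK1 DLAgn_00203920 had 186.1, 51.7, 121.9, 55.8 and 154.7 CPM in bold 1 to bold 5, against 94.2, 117.0, 47.1, 66.8 and 73.3 CPM in shy 1 to shy 5. Bold 2 and bold 4 lay low in the shy range, and the difference of 0.51 (SE 0.38) was -0.03 without bold 1 and 0.96 without shy 1 and shy 2. SGK1 DLAgn_00069000, the abundant pituitary row, had 144.4 ± 27.0 CPM in bold and 143.3 ± 37.1 CPM in shy libraries, a difference of 0.01 (SE 0.19) that was 0.46 without shy 1 and shy 2 and -0.14 without bold 1. SGK1 DLAgn_00060760 had a mean of 4.42 ± 1.32 CPM in bold and of 3.62 ± 1.07 CPM in shy libraries, and its difference of 0.31 (SE 0.34) was 0.55 without shy 1 and shy 2. DDIT4 DLAgn_00103020 had 35.2 ± 13.3 CPM in bold and 24.1 ± 6.11 CPM in shy libraries (SD, n = 5 each), a difference of 0.53 (SE 0.29) that was 0.04 without shy 1 and shy 2.

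**Figure D2:**
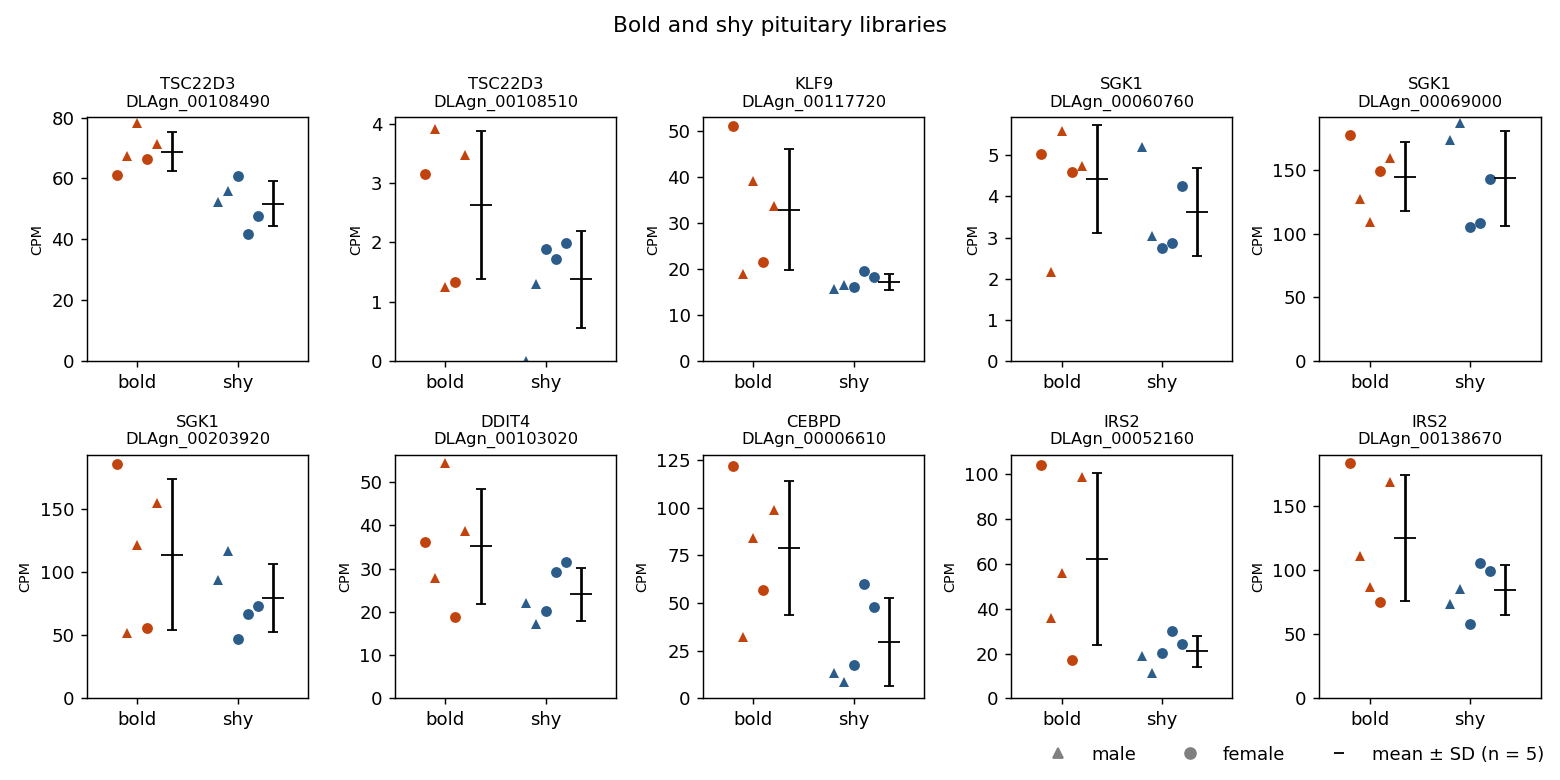
CPM of the 10 members tested in pituitary, one panel per identifier, in 5 bold and 5 shy libraries; triangles are males, circles are females, and the bar is the mean ± SD. Bold and shy libraries of TSC22D3 DLAgn_00108490 do not overlap, and in CPM the bold libraries of CEBPD and IRS2 DLAgn_00052160 spread more widely than the shy ones. For CEBPD the ranges are 32.4 to 121.9 CPM in bold and 8.45 to 60.2 CPM in shy libraries, so this wider spread is on the CPM scale alone.

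The same bold pituitaries were high for most members. The mean log2 deviation of a library from its tissue's mean, over the 10 members, was 0.84 in bold 1 and 0.73 in bold 5, with all 10 members above the mean in both, and 0.41 in bold 3. It was -0.06 in bold 2 and -0.18 in bold 4, against -0.59, -0.49, -0.51, -0.12 and -0.04 in shy 1 to shy 5. Thus bold 2 and bold 4 lay within the shy range. The summed level of 14 immediate early genes, fast responders to a stimulus, also ran high in some bold pituitaries, from 913.1 to 3013 CPM in bold against 878.3 to 1616 CPM in shy libraries, with 10 of 11 tested genes higher in bold fish. Sums of pituitary markers overlapped between bold fish (2794 to 4005 CPM) and shy fish (1969 to 3712 CPM), as did those of leukocytes (294.2 to 533.2 CPM in bold, 195.5 to 462.6 CPM in shy fish) and of neurons and glia (863.4 to 1117 CPM in bold, 802.3 to 1038 CPM in shy fish). The medians in bold and shy fish were 3784 and 2349 CPM for pituitary markers, 424.1 and 313.3 CPM for leukocytes, and 997.4 and 880.3 CPM for neurons and glia. Of the genes tested, 2 of 3 pituitary, 11 of 14 leukocyte, 10 of 12 neuronal and glial and 0 of 4 erythroid markers were higher in bold fish. The pituitary sum came mainly from 1 TSHB row. The part of these other genes in the members' differences was not tested.

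In head kidney, 9 members passed the filter on low counts and all 9 had a higher fitted level in bold fish. SGK1 DLAgn_00060760 and DDIT4 DLAgn_00014080 did not pass it. The median log2 fold change of the 9 was 0.86, against -0.01 over 15741 genes, of which 48.0% were higher in bold fish. By edgeR 0.00635% of genes (1 gene) passed in head kidney, 1764 had an unadjusted p under 0.05, and DESeq2 and voom called 122 and 0. As in pituitary, the members were chosen on this contrast, and their count is a description. Bold libraries lay wholly above shy libraries for 2 of the 9 members, TSC22D3 DLAgn_00108490 and IRS2 DLAgn_00138670, and for 1.41% of all genes.

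TSC22D3 DLAgn_00108490 had 146.9, 131.4, 199.0, 116.6 and 170.5 CPM in bold 1 to bold 5 head kidneys, against 86.7, 50.4, 76.3, 101.2 and 104.0 CPM in shy 1 to shy 5. All bold libraries lay above all shy libraries. The difference was 0.88 on the log2 scale (SE 0.22), or 1.85-fold, and stayed between 0.66 and 1.05 with any 1 library left out. Its second row, DLAgn_00108510, had 5.81 ± 1.86 CPM in bold and 3.05 ± 1.14 CPM in shy libraries, with overlap through shy 1, and differed by a like amount of 0.85 (SE 0.25). KLF9 had 6.49 ± 2.00 CPM in bold and 3.65 ± 1.13 CPM in shy libraries (SD, n = 5 each), a difference of 0.86 (SE 0.29), with 3 bold libraries above all shy libraries.

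IRS2 DLAgn_00138670 had 13.4, 11.5, 14.5, 13.0 and 16.3 CPM in bold 1 to bold 5 head kidneys, against 7.78, 8.59, 10.9, 10.2 and 7.86 CPM in shy 1 to shy 5. The groups did not overlap, though bold 2 and shy 3 were close. The difference was 0.61 (SE 0.15). DLAgn_00052160 had 6.64, 3.71, 6.06, 5.70 and 8.02 CPM in the bold libraries, against 3.89, 2.54, 3.30, 3.28 and 2.35 CPM in the shy libraries. Only bold 2 fell below a shy library, and the difference was 0.99 (SE 0.24), or 1.98-fold.

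DDIT4 DLAgn_00103020 had 93.2, 51.4, 167.7, 61.8 and 110.5 CPM in bold 1 to bold 5 head kidneys, against 42.8, 14.8, 40.4, 43.3 and 61.9 CPM in shy 1 to shy 5. Bold 1, bold 3 and bold 5 were high, shy 2 was lowest, and shy 5 reached the lower bold libraries. The difference of 1.29 (SE 0.45), or 2.45-fold, was the largest of the members in this tissue. SGK1 DLAgn_00203920 had 73.0, 24.0, 46.2, 29.4 and 56.4 CPM in the bold libraries, against 19.7, 11.2, 23.8, 27.5 and 26.7 CPM in the shy libraries. Only bold 2 lay within the shy range, and the difference was 1.21 (SE 0.31), or 2.31-fold.

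CEBPD had 15.3 ± 5.13 CPM in bold and 9.24 ± 4.38 CPM in shy head kidneys, a difference of 0.79 (SE 0.35) with overlap between the groups. SGK1 DLAgn_00069000 was the member with the smallest difference in head kidney, as in pituitary. It had 14.1 ± 5.15 CPM in bold and 13.2 ± 5.34 CPM in shy libraries (0.14, SE 0.33), and the sign turned to -0.08 without bold 1.

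**Figure D3:**
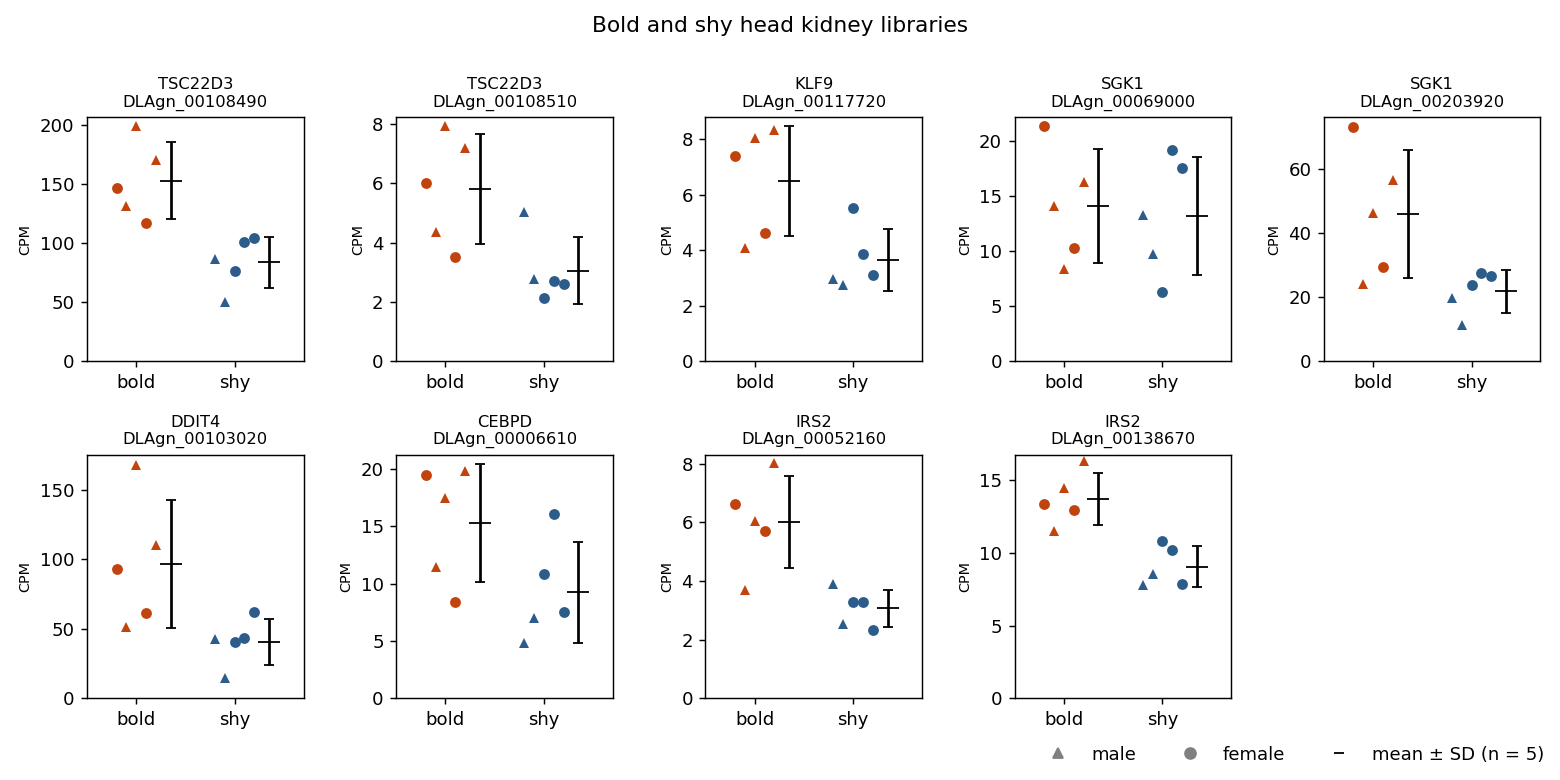
CPM of the 9 members tested in head kidney, one panel per identifier, in 5 bold and 5 shy libraries; triangles are males, circles are females, and the bar is the mean ± SD. Bold and shy libraries do not overlap for TSC22D3 DLAgn_00108490 and IRS2 DLAgn_00138670, and SGK1 DLAgn_00069000 shows the smallest difference of means.

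Head kidney libraries of bold fish also differed among themselves. The mean deviation over the 9 members was 0.67 in bold 1, 0.62 in bold 3 and 0.74 in bold 5, against -0.03 in bold 2 and -0.01 in bold 4. In shy fish it ran from -0.86 in shy 2 to -0.09 in shy 4. Each bold head kidney thus stood above each shy head kidney in this mean, but bold 2 and bold 4 only slightly. The members were chosen with the bold minus shy difference of this tissue known, so nothing is read from this separation. Genes of ribosomal proteins, 57 identifiers in all, summed to 37920 to 42310 CPM in bold and 43110 to 55940 CPM in shy head kidneys, without overlap, with 1 of 53 tested genes higher in bold fish. Interrenal markers (180.5 to 683.2 CPM in bold, 256.3 to 430.3 CPM in shy fish) and leukocyte markers (4505 to 5420 CPM in bold, 3720 to 5848 CPM in shy fish) overlapped. Erythroid markers (136000 to 187300 CPM in bold, 96500 to 267800 CPM in shy fish) and immediate early genes (67.1 to 199.7 CPM in bold, 64.5 to 141.3 CPM in shy fish) overlapped as well. Of the genes tested, 0 of 3 interrenal, 15 of 23 leukocyte and 1 of 5 erythroid markers were higher in bold fish, as were 9 of 10 immediate early genes. The median interrenal sum was 224.7 CPM in bold head kidneys, against 382.6 CPM in shy ones. The part of the ribosomal protein genes or of these other genes in the members' differences was not tested.

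In brain, where the difference between bold and shy fish could be tested, no member passed. By edgeR 0 of 11 members passed in brain, with adjusted p from 0.888 to 0.949 and 0 members at an unadjusted p under 0.05. Over all genes 0.00536% passed (1 of 18640), 254 had an unadjusted p under 0.05, and DESeq2 and voom called 2 and 1 genes, none of them members, while 2 members had an unadjusted p under 0.05 with voom. The members' median log2 fold change was 0.25, with 9 of 11 positive, against 0.01 over all genes, of which 50.7% were positive. The direction was the same as in the other tissues for most rows, but no difference passed the test.

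The groups did not overlap for CEBPD and TSC22D3 DLAgn_00108510, 2 of 11 members, as for 0.52% of all genes. CEBPD had 6.51, 4.09, 5.25, 4.09 and 5.76 CPM in bold 1 to bold 5 brains, against 3.04, 3.20, 3.04, 0.13 and 3.93 CPM in shy 1 to shy 5. Shy 4 was far below the rest. The difference was 0.92 (SE 0.58, adjusted p = 0.888 by edgeR), and 0.63 with a smaller SE of 0.24 without shy 1 and shy 4. TSC22D3 DLAgn_00108510 had 7.24, 6.87, 8.76, 8.03 and 8.98 CPM in the bold libraries, against 2.58, 4.43, 6.32, 0 and 6.12 CPM in the shy libraries. No count fell on this row in shy 4. The difference was 1.04 (SE 0.75, adjusted p = 0.888 by edgeR), and 0.52 with a smaller SE of 0.19 without shy 1 and shy 4. No member passed in the fit without these libraries.

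KLF9 was the member that went furthest the other way in brain. It had 12.2, 9.56, 15.8, 11.3 and 10.7 CPM in bold 1 to bold 5, against 13.0, 15.9, 15.2, 63.0 and 9.01 CPM in shy 1 to shy 5. The bold libraries lay inside the range of the other shy libraries, and shy 4 alone was high. The difference of -0.78 (SE 0.54, adjusted p = 0.888 by edgeR) was -0.17 without shy 4. SGK1 DLAgn_00203920 was also highest in shy 4, at 366.0 CPM against 150.1 to 190.5 CPM in bold brains and 145.3 to 165.7 CPM in the other shy brains (-0.15, SE 0.28). IRS2 DLAgn_00052160 was lowest in shy 4, at 0.39 CPM against 31.3 to 76.8 CPM in bold brains and 13.6 to 47.0 CPM in the other shy brains. Its difference was 0.97 (SE 0.80), and 0.45 (SE 0.28) without shy 1 and shy 4. The remaining 6 members had differences between 0.08 and 0.41 on the log2 scale, and between -0.03 and 0.31 without shy 1 and shy 4. The highest of the 6, SGK1 DLAgn_00060760, had 0.41 with all libraries, 0.16 without shy 4 and 0.03 without shy 1 and shy 4.

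**Figure D4:**
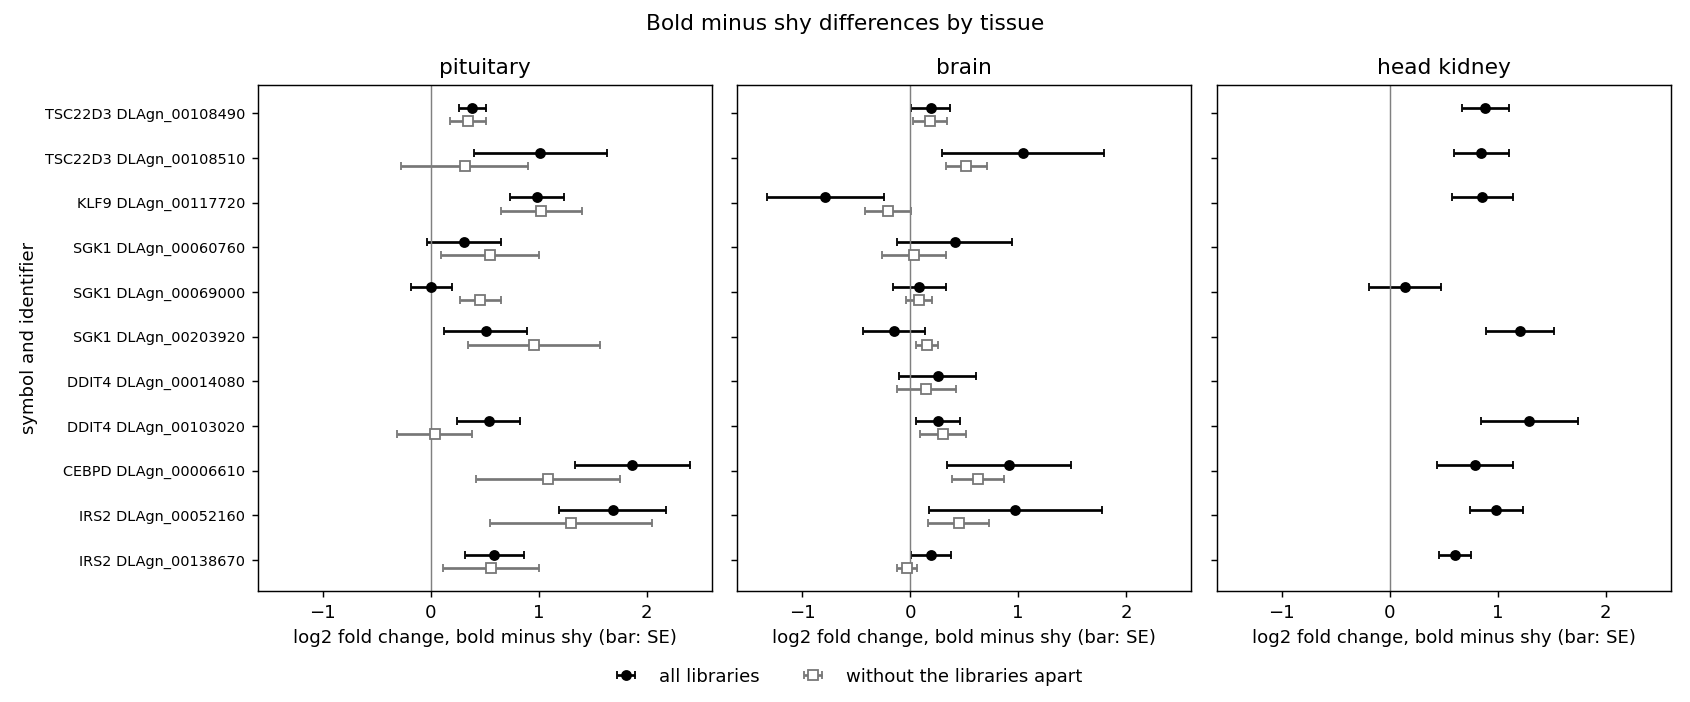
Log2 fold change, bold minus shy, of each member by tissue, with its SE as the bar; filled points use all libraries and open squares leave out the libraries that stood apart (pituitary shy 1 and shy 2, brain shy 1 and shy 4). All pituitary and head kidney points lie above 0, and in brain KLF9 moves from -0.78 to -0.21 without the libraries apart.

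**Figure D5:**
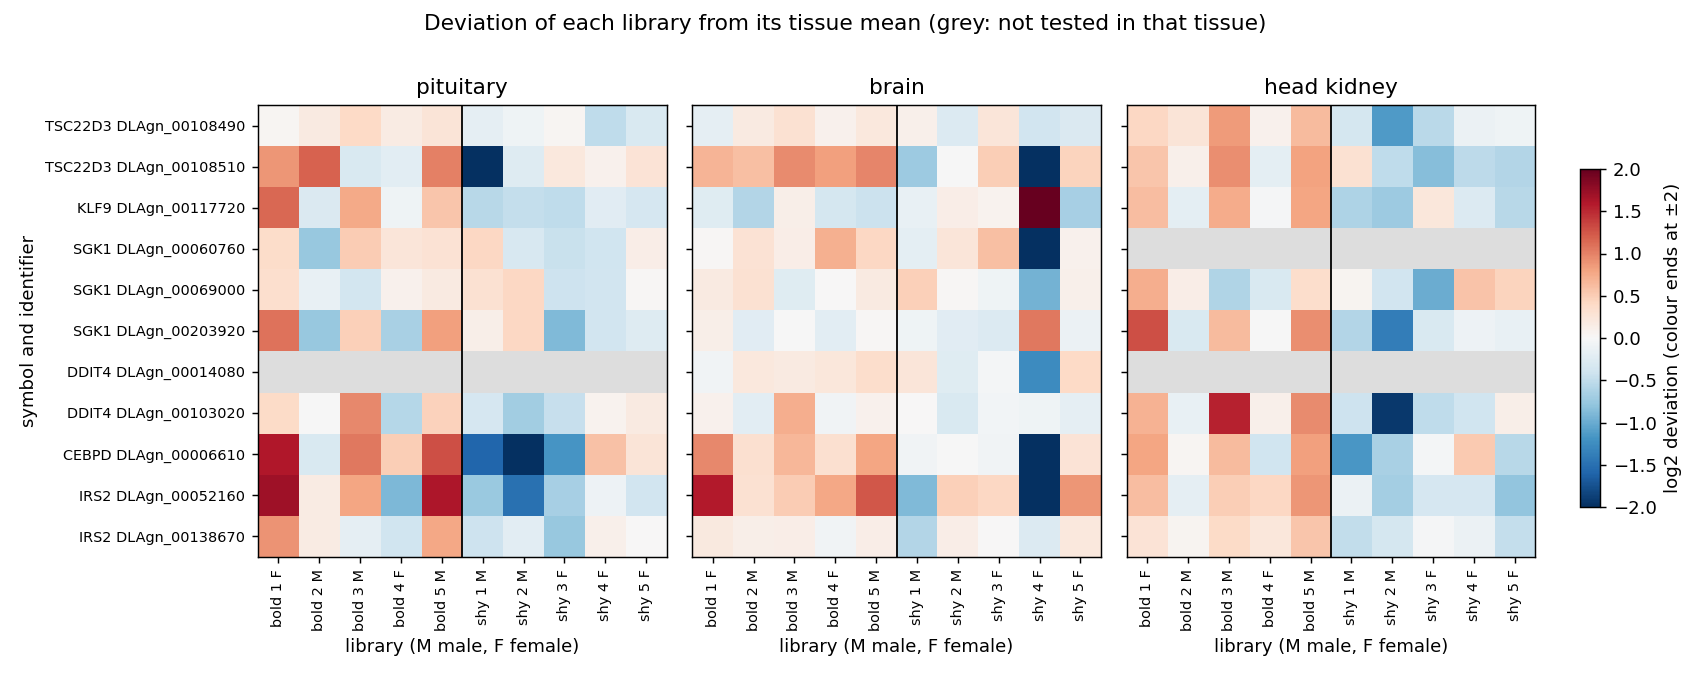
Log2 deviation of each library from the mean of its tissue, for each identifier (rows) and library (columns, bold left of shy), with colours ending at ±2 and grey where the row was not tested. Bold 1 and bold 5 are above the mean for all tested members in pituitary and in head kidney, and brain shy 4 stands out in both directions. Numbers do not pair tissues, so libraries of one number need not come from the same fish.

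Sex made no difference that passed in any tissue. Of the members tested, 0 passed for male minus female by edgeR in pituitary, brain and head kidney, and none had an unadjusted p under 0.05. The share of all genes that passed was 0.0% in each tissue, with 2316, 89 and 564 genes at an unadjusted p under 0.05, and DESeq2 called 0, 1 and 7 genes while voom called 0 in each. CEBPD had the smallest p in pituitary, with 47.4 ± 41.5 CPM in males and 61.0 ± 38.0 CPM in females (-1.08, SE 0.53, edgeR adjusted p = 0.379). The male range held the 2 shy males that stood apart. In head kidney it was TSC22D3 DLAgn_00108510, with 5.46 CPM in males and 3.40 CPM in females (0.52, SE 0.25, edgeR adjusted p = 1.0). In brain it was SGK1 DLAgn_00069000, with 198.1 ± 37.0 CPM in males and 164.7 ± 42.7 CPM in females (0.26, SE 0.24, edgeR adjusted p = 1.0).

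Whether the bold minus shy difference itself differed between males and females was tested as an interaction. In pituitary 9.58% of all genes passed by edgeR (1639 genes), a tissue where both shy males were the libraries that stood apart, so that sex within the shy class and those libraries cannot be told apart. An unadjusted p under 0.05 was found for 4354 genes, and DESeq2 and voom called 2263 and 882. None of the 10 members passed by edgeR, and DESeq2 called 1 member. The nearest was SGK1 DLAgn_00069000, with a mean of 131.7 CPM in 3 bold males and 180.1 CPM in 2 shy males, and of 163.3 CPM in 2 bold females and 118.7 CPM in 3 shy females. In these libraries it was lower in bold males than in shy males and higher in bold females than in shy females. The interaction was -0.91 (SE 0.26, edgeR adjusted p = 0.051), and over the alternatives the adjusted p ran from 0.0214 with DESeq2 to 0.0919. With each library left out in turn it ran from 0.0308 to 0.165, and the fit without both shy males could not be made. By edgeR the row was the only member with an unadjusted p under 0.05 in that tissue, and by DESeq2 it was 1 of 2.

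No other interaction of a member passed either. CEBPD stood at 71.8 CPM in bold males and 10.9 CPM in shy males, and at 89.4 CPM in bold females and 42.0 CPM in shy females of the pituitary (1.68, SE 0.96, edgeR adjusted p = 0.322). In head kidney 0.0191% of genes passed by edgeR (3 genes), with 587 at an unadjusted p under 0.05 and 21 and 0 called by DESeq2 and voom, and 0 of 9 members passed. TSC22D3 DLAgn_00108490 stood there at 166.9 CPM in bold males and 68.5 CPM in shy males, and at 131.8 CPM in bold females and 93.9 CPM in shy females (0.81, SE 0.37, edgeR adjusted p = 0.999). Both sexes had the higher level in bold fish. In brain 0.0% of genes and 0 of 11 members passed by edgeR, with 76 genes at an unadjusted p under 0.05 and 1 and 0 called by DESeq2 and voom.

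Members differed in how far they moved with one another across the libraries of a tissue. The measure was Spearman's rho over 10 libraries within each tissue, averaged over the 3 tissues, and it is given as a description for the 36 pairs among the 9 members tested in all tissues; libraries share their class, sex and depth in these pairs. The rho therefore includes the bold minus shy difference on which the members were chosen, and Pearson's r over 30 libraries after removing the mean of each tissue and class is given beside it. The 2 IRS2 rows had a mean rho of 0.806, with 0.806 in each tissue, and an r of 0.491 after removing these means. CEBPD followed IRS2 DLAgn_00052160 at a rho of 0.782 (r 0.78) and DLAgn_00138670 at 0.737 (r 0.484). SGK1 DLAgn_00069000 had low values with every other of the 9 members, with mean rho from -0.18 to 0.35, and 0.35 was its value with the other abundant SGK1 row (r 0.204). KLF9 followed CEBPD at 0.927 in pituitary and 0.867 in head kidney but at -0.46 in brain, and its r with CEBPD was -0.171. Brain shy 4 is among the 30 libraries, with CEBPD at 0.13 CPM, IRS2 DLAgn_00052160 at 0.391 CPM and KLF9 at 63.0 CPM. In the other shy brains these stood at 3.04 to 3.93, 13.6 to 47.0 and 9.01 to 15.9 CPM. No rho or r was computed without brain shy 4, so its weight in these values was not tested.

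For each of the 9 members, the 3 genes of most like pattern by the same mean rho were listed among 12694 genes with a symbol. SGK1 DLAgn_00203920 was most like NR4A1 (0.891), SIK1 (0.863) and CSRNP1 (0.851). DDIT4 DLAgn_00103020 was most like RGS1 (0.798), NR4A3 (0.766) and PRR18 (0.758). NR4A1 and NR4A3 are orphan nuclear receptors, and SIK1 is a salt-inducible kinase. CEBPD was most like GBP (0.855), SNRK (0.834) and KLF2 (0.822). SNRK, a kinase of the family of AMP-activated kinases, also came first for IRS2 DLAgn_00052160 (0.891) and IRS2 DLAgn_00138670 (0.867). For KLF9 the list was TIMM17A (0.778), CCNL1 (0.754) and BCL6 (0.741), and for TSC22D3 DLAgn_00108490 it was TAF1C (0.79), SSH2 (0.77) and GBP (0.749). SGK1 DLAgn_00069000 had the weakest likeness, with RARG at 0.689. These are the 3 highest values of many genes, and the rho includes the bold minus shy difference. Under a second measure, Pearson's r after removing the means of each tissue and class, 3 of the 27 named genes were named again. Over the 27 genes this r ran from 0.181 (TAF1C with TSC22D3 DLAgn_00108490) to 0.924 (FRY with IRS2 DLAgn_00052160). For SSH2 and GBP with TSC22D3 DLAgn_00108490 it was 0.341 and 0.272.

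Other genes known in mammals to respond to glucocorticoids were read from a list of 32 symbols, taken exactly or with a trailing A or B. This found 38 identifiers. No row was found for G6PC, MT1, MT2, HIF3A, ZFP36, CDKN1A, FAM107A or CITED2, so these were not examined. BCL6B is not itself a listed symbol and entered only as BCL6 with a trailing B. In pituitary 24 of 29 tested were higher in bold fish, with a median log2 fold change of 0.36, and in head kidney 22 of 28 were, with a median of 0.42. As for the members, the list was set up with these contrasts known, and its values there are a description. In brain 15 of 34 were higher in bold fish and 19 lower, with a median of -0.03, and 0 passed by edgeR. The 3 with the smallest p in brain all had an edgeR adjusted p of 0.888. They were TXNIP DLAgn_00197720, an inhibitor of thioredoxin (0.66, SE 0.31), and the transcription factor CEBPB (0.79, SE 0.41). The last was ERRFI1 DLAgn_00132880, an inhibitor of epidermal growth factor receptors (-0.45, SE 0.30), whose other row stood at 0.17 (SE 0.38).

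For male minus female, 17 of 29 list genes were positive in pituitary, 10 of 34 in brain and 11 of 28 in head kidney, and none passed by edgeR. As log2 differences, the smallest p values in pituitary belonged to FOXO3 DLAgn_00071610 (0.58), TXNIP DLAgn_00233430 (-1.06) and BCL6B (-0.53). In brain they belonged to KLF15 DLAgn_00088390 (0.39), ANGPTL4 DLAgn_00003870 (-0.40) and FOXO1 DLAgn_00035360 (-0.79). Other rows stood in brain at -0.01 and -0.28 for KLF15, at 0.145 for ANGPTL4 and at -0.63 for FOXO1. In head kidney they belonged to NFKBIAA (-0.17), FOXO1 DLAgn_00258240 (0.45) and DUSP1 (-0.69). In the pituitary interaction both shy males were the libraries that stood apart, and 9.58% of all genes passed. Of the 29 list genes 1 passed, NFKBIAA, an inhibitor of NF-kappa-B (2.11, SE 0.55, edgeR adjusted p = 0.0354). This call was kept in 1 of 10 fits with 1 library left out, over which the adjusted p reached 0.0954, and its value was 1.41 without shy 2 and 3.05 without shy 1. Across tissues, 13 list genes of 35 tested passed as higher and 13 as lower in pituitary. The counts were 21 and 11 in brain, and 14 and 18 in head kidney. Of all genes, 36.1% passed as higher and 29.2% as lower in pituitary, 41.9% and 34.6% in brain, and 36.2% and 44.4% in head kidney. These counts are not read as particular to the list.

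Relatives of the members were read from 15 symbols, of which TSC22D4 and KLF16 had no row. The 19 identifiers found had tissue orders of their own. CEBPB averaged 490.8 ± 206.9 CPM in head kidney, 34.0 ± 27.4 CPM in pituitary and 6.80 ± 3.48 CPM in brain, and CEBPA averaged 304.1 ± 106.8 CPM in head kidney, 4.47 ± 1.90 CPM in pituitary and 11.5 ± 3.37 CPM in brain. Both of these CCAAT/enhancer-binding factors were thus highest in head kidney, where CEBPD was lower than in pituitary. SGK2 averaged 29.7 ± 10.1 CPM in head kidney, 3.51 ± 1.34 CPM in pituitary and 2.69 ± 0.84 CPM in brain, and SGK3 averaged 49.3 ± 8.50 CPM in head kidney, the tissue where all SGK1 rows were lowest. TSC22D1 DLAgn_00137550 was highest in brain, at 187.1 ± 51.5 CPM. The DDIT4L rows divided the tissues, with DLAgn_00142660 at 37.7 ± 13.2 CPM in brain and 2.33 ± 1.15 CPM in the head kidney, and DLAgn_00112250 at 1.94 ± 0.82 CPM in brain and 18.8 ± 5.58 CPM in the head kidney. Against the mean of the other tissues, 3 of 18 relatives passed by edgeR as higher and 9 as lower in pituitary. In brain 6 and 6 passed, and in head kidney 10 and 5. The shares of all genes were 36.1% and 29.2% in pituitary, 41.9% and 34.6% in brain, and 36.2% and 44.4% in head kidney. These counts are not read as particular to the relatives. In the pituitary interaction, where 9.58% of all genes passed and both shy males stood apart, 1 of 17 relatives passed. It was TSC22D1 DLAgn_00265400 (2.29, SE 0.55, edgeR adjusted p = 0.0239). This call was kept in 6 of 10 fits with 1 library left out, with a value of 3.46 without shy 2.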

How the data were processed

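RNA of 30 libraries was read as single ends of 50 nt from a stranded poly(A) kit, per the labels' protocols. The authors deposited raw gene counts. Per the submitters' processing notes, the tools were TopHat2 2.1.1 and Bowtie2 2.2.9 with featureCounts 1.6.2, besides SAMtools 1.5, FastQC and bcl2fastq 2.20. Build, annotation and strandedness of counting are not given in the sources. Of 26719 identifiers 5479 carry no symbol and 0 matched the reference gene table, so no sequence is shown. The members, lists and tests were chosen with earlier results of these data known.

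Within a tissue, edgeR 4.0.16 in R 4.3.3 (robust quasi-likelihood, TMM factors, filterByExpr with a minimum count of 10) fitted behavior and sex, and a second fit their interaction. Another fit of all 30 libraries, with group and sex, compared tissues. P-values are two-sided and Benjamini-Hochberg adjusted over all genes tested, and 0.05 was the threshold. SE is that of the log2 fold change. In pituitary and head kidney bold minus shy is described without a p. Named are all members, the list genes that passed, the 3 list genes of smallest p in brain and for sex, and the 3 genes most like each member tested in all tissues. Like patterns used log2 of CPM plus 0.25. The alternatives were median-of-ratios factors, no filter, at least 1 CPM in 5 libraries, DESeq2 1.42.0, limma 3.58.1 voom with sample quality weights, no covariate, a log2 fold change of at least 1 for tissues, leaving out the libraries apart, and leaving out each library in turn. The fits were also run on simulated counts, with the same dispersion for all genes and independent libraries. Those counts had no libraries apart and no fish shared between tissues, so nothing is read from them here. Depth limits the sparse rows most, and figures were drawn with matplotlib 3.10.9.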

Additional observations from a re-analysis of the deposited data

Results flagged for a closer look

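Of 61 groups of 5 libraries examined, 8 held a library far from the others of its group (by Dixon's ratio of its gap to the group's range on the log2 scale with 0.25 CPM added), where chance gives about 1 in 20. In 6 of the 8 the library was brain shy 4, which also held 0.0168% ribosomal protein counts. In that library KLF9 was highest at 63.0 CPM, against 9.01 to 15.9 CPM in the other shy brains, and SGK1 DLAgn_00203920 was highest at 366.0 CPM, against 145.3 to 165.7 CPM. Its TSC22D3 DLAgn_00108510 level was 0 CPM, against 2.58 to 6.32 CPM, and its SGK1 DLAgn_00060760 level was 0.13 CPM, against 1.38 to 2.58 CPM. Its CEBPD level was 0.13 CPM, against 3.04 to 3.93 CPM, and its IRS2 DLAgn_00052160 level was 0.391 CPM, against 13.6 to 47.0 CPM. The other two were in pituitary. TSC22D3 DLAgn_00108510 was at 0 CPM in shy 1, the shallowest pituitary library, against 1.30 to 1.99 CPM in the other shy libraries. SGK1 DLAgn_00060760 was at 2.17 CPM in bold 2, against 4.59 to 5.58 CPM in the other bold libraries.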

How the results depend on the processing

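Over the alternatives, members called in a tissue contrast numbered 9 in pituitary, 5 to 8 in brain and 10 to 11 in head kidney, and 9, 7 to 8 and 10 to 11 with a library left out. All genes called moved too, from 8510 to 15179 in pituitary, 10793 to 17202 in brain and 12142 to 18323 in head kidney. With a library left out they numbered 13114 to 14978, 15364 to 16723 and 16467 to 17629. No member passed in brain between bold and shy fish, or for sex in any tissue, under any alternative. In the pituitary interaction 1 member, SGK1 DLAgn_00069000, passed under DESeq2, and 0 to 1 passed with a library left out. All genes called in that interaction numbered 882 to 2263 over the alternatives and 711 to 2242 with a library left out, and bold minus shy calls 0 to 689 in pituitary and 0 to 122 in head kidney. The head kidney interaction gave 0 to 21 genes and, with a library left out, 0 to 17. With a log2 fold change of at least 1 also required, 8510 of 13448 genes still passed in pituitary against the other tissues and 8639 of 13336 in pituitary minus brain. Members higher in bold fish numbered 8 to 10 in pituitary and 8 to 9 in head kidney with a library left out.

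Signs turned for the following values, and the cause was not tested. In brain, bold minus shy of SGK1 DLAgn_00203920 became 0.156 with voom and 0.16 without the libraries apart, and ran from -0.238 to 0.117 with a library left out. SGK1 DLAgn_00069000 ran from -0.059 to 0.235, and IRS2 DLAgn_00138670 became -0.031 without the libraries apart. In pituitary, bold minus shy became -0.03 for SGK1 DLAgn_00203920 and -0.14 for SGK1 DLAgn_00069000 without bold 1, and in head kidney it became -0.08 for SGK1 DLAgn_00069000 without bold 1. Against the other tissues, pituitary SGK1 DLAgn_00203920 became -0.068 without the libraries apart and ran from -0.081 to 0.15 with a library left out, and DDIT4 DLAgn_00014080 ran from -0.0015 to 0.41. Brain KLF9 became -0.27 without the libraries apart and ran from -0.25 to 0.37, and brain IRS2 DLAgn_00138670 ran from -0.0065 to 0.18. Pituitary minus brain of IRS2 DLAgn_00052160 became -0.022 without the libraries apart and ran from -0.086 to 0.27.

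With median-of-ratios factors, the median over all genes shifted by 0.111 for brain and by -0.11 for head kidney (log2). No paired analysis was possible because no label says which libraries of different tissues came from the same fish, and replicate numbers here are only names. Rows under 5 counts in head kidney were read at the limit of depth.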
